A study of Mus musculus with 43 samples.

Results

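In wild-type fetal liver, 754 regions bound by EKLF lay more than 10 kb from every protein-coding gene and had no overlapping region in the list of Nan/+ fetal liver. They were selected on measured values: their presence in the WT list of EKLF regions, the absence of any Nan/+ region overlapping them by 1 bp, and a centre over 10 kb outside all protein-coding genes of the RefSeq table of the mouse assembly GRCm38.p6 (mm10). They made up 754 of the 9174 WT regions on chromosomes 1 to 19 and X, and 10.9% of the 6928 WT regions without a Nan/+ overlap. A further 81 WT regions lay as far from genes but did overlap a Nan/+ region, and 2081 Nan/+ regions at this distance overlapped no WT region. The 3 classes are named WT-only far, shared far and Nan-only far here, and their definitions are descriptions, not results.

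The series holds 43 samples in 19 groups from mouse fetal liver at E13.5, and its other assays were not analysed here. EKLF chromatin immunoprecipitation (ChIP) with the 7B2a antibody was made in 3 libraries from littermates of each genotype, labelled Nan strain WT and Nan/+, and the cells are described as primary erythroid. Nan/+ embryos carry 1 Nan allele and 1 normal allele, so normal EKLF is encoded in both genotypes, and the lists do not separate binding of the normal and the Nan protein. The ChIP libraries held 74140385 to 103170594 tags in WT and 72023512 to 100763687 in Nan/+, per the file headers. The deposited lists give 1 set of regions for each genotype from all 3 libraries together, with the same score of 1 for every region, so that no spread between embryos could be taken, no difference between genotypes was tested, and width is the single measure that varies between regions. Region lists cannot show which cell types of the liver the DNA came from. The lists were also made with different window sizes, whose effect cannot be told apart from that of genotype: the narrowest region is 126 bp in WT and 176 bp in Nan/+.

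EKLF (KLF1) is a zinc-finger protein that binds CACCC-type DNA elements and activates globin, membrane, heme and cell-cycle genes as red cells mature. Such factors bind gene starts and also distal enhancers, which can sit inside noncoding transcripts or between genes, and which act over long stretches of DNA. Nan is an amino acid substitution in a zinc finger of EKLF that alters which DNA the protein recognises and causes anemia in heterozygotes.

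The longest run of these regions lay along Dleu2, the long noncoding RNA (lncRNA) gene that carries miR-15a and miR-16-1, and 1 region covered both hairpins. Another covered the hairpin of miR-182. The mature sequences of these microRNAs are shown because their precursors are the only microRNA hairpins that the regions touched. Capitals mark the seed, bases 2 to 8, which pairs with target transcripts, and the sequences are from RefSeq on GRCm38.p6.
mmu-miR-15a-5p: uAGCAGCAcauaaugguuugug
mmu-miR-16-5p: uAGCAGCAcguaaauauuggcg
mmu-miR-182-5p: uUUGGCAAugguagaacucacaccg
miR-15a-5p and miR-16-5p had the same seed, AGCAGCA, shared their first 9 bases, and were identical at 16 of 22 positions. miR-182-5p had another seed, UUGGCAA.

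Sequence of the regions themselves was not used here, but RefSeq start windows of lncRNAs, from 250 bases before to 50 bases after each start, were at hand. The regions overlapped the start windows of 30 lncRNAs. Those of Dleu2, of 5730460C07Rik, 1110036E04Rik and Snhg5, which lie at the widest regions with a lncRNA start, and of Gm34253, beside the band 3 gene Slc4a1, are shown on the strand of the RNA. This choice was made after their values were seen. Capitals mark every match to CCNCNCCC on either strand, with overlapping matches run together. This pattern covers CACCC-type forms such as CCACACCC and also forms without CACCC, such as CCCCGCCC.
Dleu2 start, chr14:61682324-61682623, minus strand: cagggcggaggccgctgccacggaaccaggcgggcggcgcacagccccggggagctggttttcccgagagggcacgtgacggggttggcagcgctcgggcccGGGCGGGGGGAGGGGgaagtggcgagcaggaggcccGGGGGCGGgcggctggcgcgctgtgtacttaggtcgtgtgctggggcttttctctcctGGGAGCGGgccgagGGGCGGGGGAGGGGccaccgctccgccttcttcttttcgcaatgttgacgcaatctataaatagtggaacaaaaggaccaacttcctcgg
5730460C07Rik start, chr3:153792038-153792337, minus strand: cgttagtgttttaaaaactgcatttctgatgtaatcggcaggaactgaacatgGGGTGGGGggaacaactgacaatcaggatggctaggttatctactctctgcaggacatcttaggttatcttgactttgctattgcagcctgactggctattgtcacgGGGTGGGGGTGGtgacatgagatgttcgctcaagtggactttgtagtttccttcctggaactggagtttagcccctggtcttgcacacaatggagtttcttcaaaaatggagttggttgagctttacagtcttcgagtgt
1110036E04Rik start, chr9:64049579-64049878, plus strand: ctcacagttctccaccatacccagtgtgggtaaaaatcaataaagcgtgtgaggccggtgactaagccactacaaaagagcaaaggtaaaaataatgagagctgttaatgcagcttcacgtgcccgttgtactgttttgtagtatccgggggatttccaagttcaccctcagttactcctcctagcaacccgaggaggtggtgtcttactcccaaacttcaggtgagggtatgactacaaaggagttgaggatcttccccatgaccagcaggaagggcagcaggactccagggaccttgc
Snhg5 start, chr9:88522848-88523147, minus strand: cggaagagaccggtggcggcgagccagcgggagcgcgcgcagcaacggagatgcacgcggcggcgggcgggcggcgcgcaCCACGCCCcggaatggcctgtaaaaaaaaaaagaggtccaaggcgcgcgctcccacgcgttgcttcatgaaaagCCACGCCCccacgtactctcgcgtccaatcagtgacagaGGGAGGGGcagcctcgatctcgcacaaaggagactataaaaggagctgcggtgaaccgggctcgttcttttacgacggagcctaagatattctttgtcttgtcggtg
Gm34253 start, chr11:102375219-102375518, plus strand: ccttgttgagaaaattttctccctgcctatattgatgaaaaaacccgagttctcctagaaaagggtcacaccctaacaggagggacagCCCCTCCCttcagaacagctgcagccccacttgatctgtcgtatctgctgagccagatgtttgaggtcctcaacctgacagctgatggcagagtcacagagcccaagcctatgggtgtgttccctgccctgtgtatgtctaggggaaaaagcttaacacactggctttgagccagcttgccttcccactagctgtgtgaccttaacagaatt
The Dleu2 window held 8 matches, the most of the 30 lncRNAs, and 69% of its bases were G or C. Neither these 8 matches nor the match in the Gm34253 window contained CACCC on either strand. The Snhg5 and 5730460C07Rik windows held 3 matches each, the Gm34253 window held 1, and the 1110036E04Rik window held none, although a region of 1279 bp covered it whole.

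A match to CCNCNCCC was present in 19 of the 30 lncRNA start windows (63.3%, exact 95% binomial interval 43.9 to 80.1), taking 1 window for each lncRNA. In 16 of the 30 lncRNAs at least 1 match lay inside the WT-only region itself. Of all 4922 lncRNAs with a start window over 10 kb from protein-coding genes, 29.9% held a match (28.6 to 31.2). Among the 446 lncRNA start windows that any WT region overlapped, including those close to genes, 76.2% did. So did 74.4% of the 281 lncRNA start windows that a Nan/+ region overlapped and 56.1% of the 17274 protein-coding start windows. The shares of these 446, 281 and 17274 windows lie inside the interval of the 30. These values go together with base composition, whose part was not tested. Median G plus C was 51.8% in the 30 windows, 46.7% in the 4922, 66.0% in the 446 and in the 281, and 56.3% in the 17274. A GATA element on either strand (AGATAA or its form with a final G, AGATAG, or the forms with an initial T, written TGATAA when it ends in A and also TGATAG when it ends in G) was present in 14 of the 30 windows (46.7%) and in 42.0% of the 4922. For CCNNGCCC, a GC-rich element that shares letters with CCNCNCCC and was planned as a Nan-type form, the shares were 36.7% (19.9 to 56.1) and 19.3%. It was present in 65.7% of the 446 windows, 70.8% of the 281 and 47.7% of the 17274. Among planned forms of CCNCNCCC, CCACACCC was in 3.33% of the 30 and 2.91% of the 4922, and CCCCACCC in 16.7% and 7.38%. CCACGCCC was in 10.0% and 1.52%, and CCCCGCCC in 16.7% and 3.15%. The planned ETS element CCGGAA was in 16.7% of the 30 and 5.91% of the 4922. The NF-E2 and AP-1 element TGANTCA was in 6.67% and 11.1%, and the E-box CAGCTG in 10.0% and 18.1%. All of these motif matches are letters in a window and not measured binding sites, and binomial intervals here and throughout cover counting error only.

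Dleu2 spans chr14:61602836-61682373 and is transcribed from the minus strand. It held 12 WT-only far regions, 2 further WT-only regions closer to the gene Kcnrg, and 1 region shared with Nan/+. Only 2 Nan-only regions fell within it, 1 of them at the minimum width. The run of 10 regions at chr14:61623178-61653587 covered 30.4 kb, and each region in it lay over Dleu2. From left to right the 10 regions were 1625, 384, 1134, 1155, 223, 606, 611, 158, 570 and 357 bp wide. The region that covered the hairpins of Mir16-1 and Mir15a, chr14:61630956-61632110, was the one of 1155 bp. The other 2 regions stood apart at the start of Dleu2, chr14:61680607-61681758 with 1152 bp and chr14:61682124-61682620 with 497 bp, and the latter overlapped the start window printed above by 297 of 300 bases. This gene held 4 of the 12 widest regions of the whole class. The nearest protein-coding gene of all 12 was Kcnrg, a potassium channel regulator, at 11.2 to 69.5 kb, and Kcnrg had neither a WT nor a Nan/+ region within 1 kb of its ends.

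**Figure D1:**
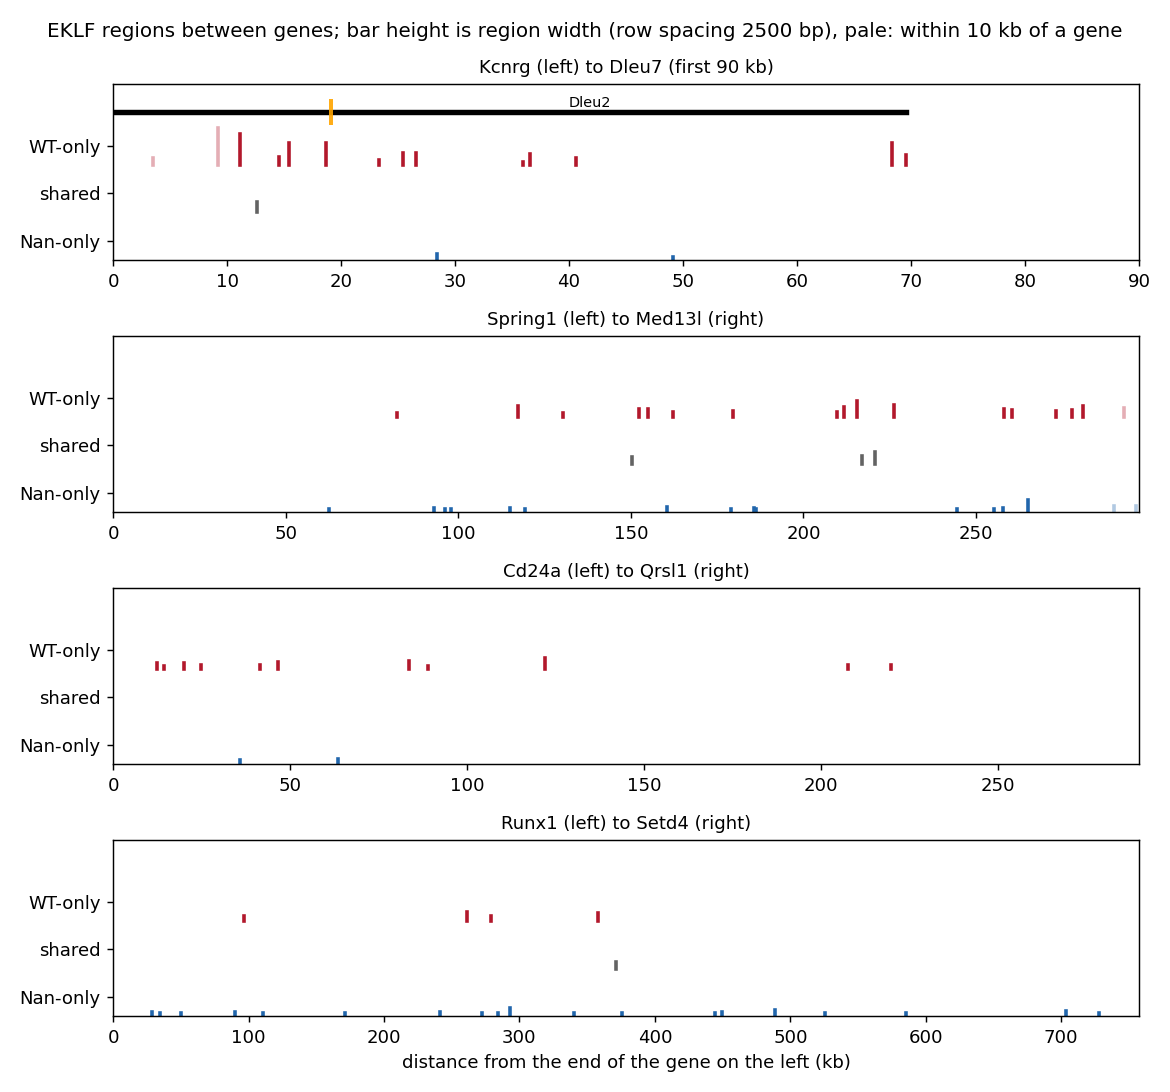
EKLF regions in 4 stretches between protein-coding genes, by distance in kb from the end of the gene on the left. Each vertical bar is 1 region and its height is the region's width, with rows for WT-only (red), shared (grey) and Nan-only (blue) regions, pale bars lie within 10 kb of a gene, the black line is Dleu2 and the orange tick marks the Mir16-1 and Mir15a hairpins. Along Dleu2 the WT-only bars are tall and only 2 Nan-only bars are present, between Spring1 and Med13l 16 far WT-only and 14 far Nan-only regions are interspersed, and beyond Runx1 19 Nan-only regions surround 4 WT-only ones.

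The regions touched other microRNA genes less directly. Of the 754, 2 overlapped a hairpin and 13 (1.72%, 0.921 to 2.93) lay within 10 kb of one. Of the 2081 Nan-only far regions, none overlapped a hairpin and 9 (0.432%, 0.198 to 0.819) lay within 10 kb. Within 10 kb lay also 5 of the 576 Nan-only far regions above the minimum width (0.868%, 0.282 to 2.01) and 3 of the 81 shared far regions (3.704%, 0.770 to 10.4), and both intervals overlap that of the WT-only regions. Since 7 of the 13 regions belong to Dleu2, they are not independent of each other. The Mir182 hairpin was covered by a region of 157 bp, chr6:30165886-30166042, near the minimum width and 12.51 kb from Nrf1, a transcription factor gene for mitochondrial functions. Mir96 and Mir183, of the same microRNA cluster, lay 3403 and 3625 bp from it. A region of 562 bp on chromosome X lay 2424 bp from Mir322 and 2719 bp from Mir503, and a Nan/+ region was 257 bp away. An 883-bp region on chromosome 13 lay 7552 bp from Mirlet7a-1, whose product belongs to the let-7 family. A region of 202 bp on chromosome 8 lay 9717 bp from Mir23a, with a Nan/+ region 718 bp away.

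Long noncoding RNA genes were common at these regions. The centre of 221 of 754 regions (29.3%, 26.1 to 32.7) fell inside a lncRNA gene, against 22.2% (20.4 to 24.0) of Nan-only far regions and 30.9% (21.1 to 42.1) of shared far regions. For the 576 Nan-only far regions above the minimum width it was 24.0% (20.5 to 27.7), an interval that overlaps that of the WT-only regions. Of all positions over 10 kb from protein-coding genes, taken every 1 kb, 11.6% fell inside a lncRNA gene. These positions lay farther from protein-coding genes, with a median of 124 kb against 32.9 kb for the WT-only far regions. The share over positions at like distance was not computed. Start windows of lncRNAs were overlapped by 30 of the 723 regions outside chromosome 18 (4.15%, 2.82 to 5.87), for which the table has windows, by 1.36% (0.899 to 1.97) of Nan-only far regions and by 15.2% (8.10 to 25.03) of shared far regions. Among Nan-only far regions above the minimum width the share was 2.23% (1.16 to 3.86), an interval that overlaps that of the WT-only regions. The interval of the shared regions lies above that of the WT-only ones. Width moved with these shares, and its part was not tested: shared far regions were wider than WT-only far regions.

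Width was measured for every region. The median WT-only far region was 305 bp (exact order-statistic 95% interval of the median 291 to 318), with quartiles of 198 and 433 bp and a range from 126 to 1625 bp. At the minimum of 126 bp there were 72 regions (9.55%), and 15 regions were 1 kb or wider. Shared far regions had a median of 409 bp (338 to 443) and WT-only regions in genes or within 10 kb of them a median of 371 bp (366 to 377), and neither interval overlaps that of the WT-only far regions. A wider region meets a Nan/+ region by 1 bp more easily, so the rule itself favours wider regions among the shared ones. That comparison is therefore a description, and how much of it the rule sets was not tested. Nan-only far regions are not comparable in width because of the other window size, and 72.3% of them were at their minimum.

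The 12 widest regions began with the Dleu2 region of 1625 bp. The next, chr5:96951080-96952489, was 1410 bp wide and lay 45.9 kb before Bmp2k, which encodes a kinase. It belonged to a group of 4 WT-only regions with no Nan/+ region among them, and the nearest Nan/+ region was 4436 bp away. The whole stretch of 151.7 kb between Anxa3 and Bmp2k held 8 WT-only far and 13 Nan-only far regions. The region of 1364 bp at 5730460C07Rik, chr3:153791278-153792641, was 52.3 kb from Asb17. The region of 1279 bp at 1110036E04Rik, chr9:64049277-64050555, lay 27.8 kb before the start of Smad6, an inhibitor of BMP signalling, and was 16.3 kb from any Nan/+ region. At Snhg5, a host gene of small nucleolar RNAs, 2 regions of 1216 and 1150 bp lay 27.4 and 25.02 kb from Zfp949, and the closest Nan/+ region to them was 36.6 kb away. The other regions of over 1 kb among these 12 were 3 more at Dleu2, 1 of 1140 bp 13.6 kb beyond Marchf5, 1 of 1125 bp 27.3 kb from Rpf2, and 1 of 1022 bp at Gm33017, 24.6 kb from D5Ertd579e, which lay 239 bp from a Nan/+ region.

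Although all lay over 10 kb out, the regions were gathered near genes within that space. The median distance from the centre to the nearest protein-coding gene was 32.9 kb (29.4 to 36.9), and the median over all positions in the same space was 124 kb. Between 10 and 25 kb lay 297 regions (39.4%, 35.9 to 43.0), compared with 15.1% of positions. Over 500 kb lay 10 regions (1.33%, 0.638 to 2.43), compared with 16.6% of positions. Nan-only far regions showed the same kind of gathering, with a median of 37.3 kb (35.4 to 39.8), and shared far regions had a median of 29.2 kb (19.8 to 36.5). Among regions whose nearest gene has a known strand, 357 of 583 (61.2%, 57.1 to 65.2) lay on the side of the gene's start. So did 60.8% (58.3 to 63.2) of Nan-only far regions and 71.9% (59.2 to 82.4) of shared far regions. A strand was missing for 171 WT-only far regions, and the share over all positions was not computed.

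**Figure D2:**
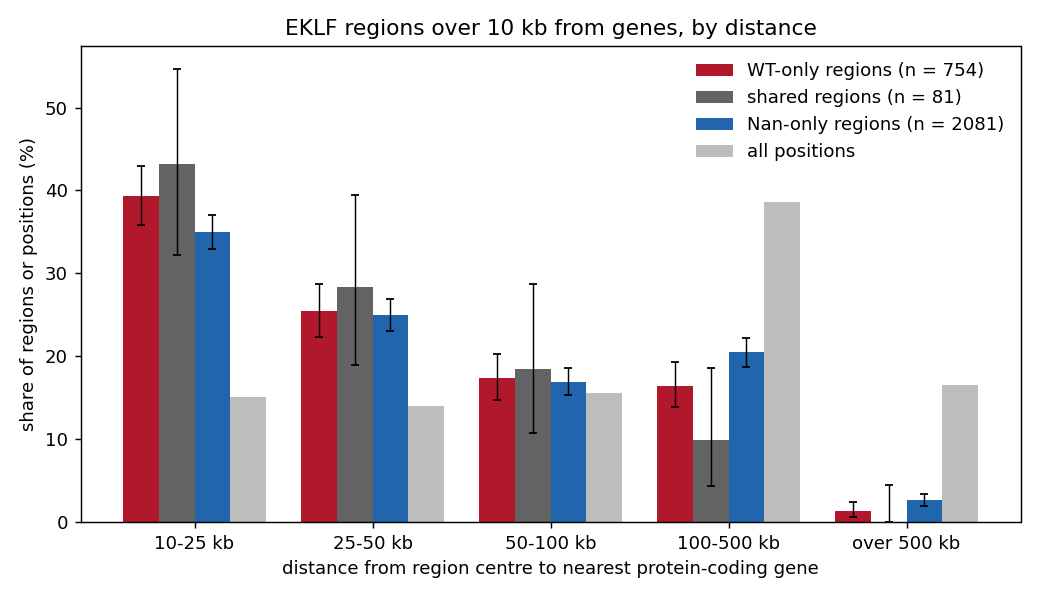
Share of EKLF regions over 10 kb from protein-coding genes in 5 ranges of distance to the nearest gene, with exact 95% binomial intervals as error bars, and the share of all positions in that space (light grey). In every EKLF class the nearest range, 10 to 25 kb, holds 35.0 to 43.2% of regions against 15.1% of positions.

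Regions farther from genes were narrower. The median width was 333 bp (310 to 365) at 10 to 25 kb, 318 bp (296 to 344) at 25 to 50 kb, 291 bp (251 to 318) at 50 to 100 kb and 230.5 bp (203 to 267) at 100 to 500 kb. The intervals of the nearest range and of 100 to 500 kb do not overlap. Over 500 kb the median was 158 bp, over only 10 regions. The share of regions whose nearest gene also carried a WT EKLF region within 1 kb of an end was 46.1% (40.4 to 52.0) at 10 to 25 kb and 24.2% (17.0 to 32.7) at 100 to 500 kb. The share with a Nan/+ region at an end was 33.3% (28.0 to 39.0), 38.5%, 39.7% and 29.0% (21.2 to 37.9) in the 4 ranges up to 500 kb, and the first and last of these intervals overlap. Regions with the same nearest gene share that value, so these intervals of shares are too narrow.

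**Figure D3:**
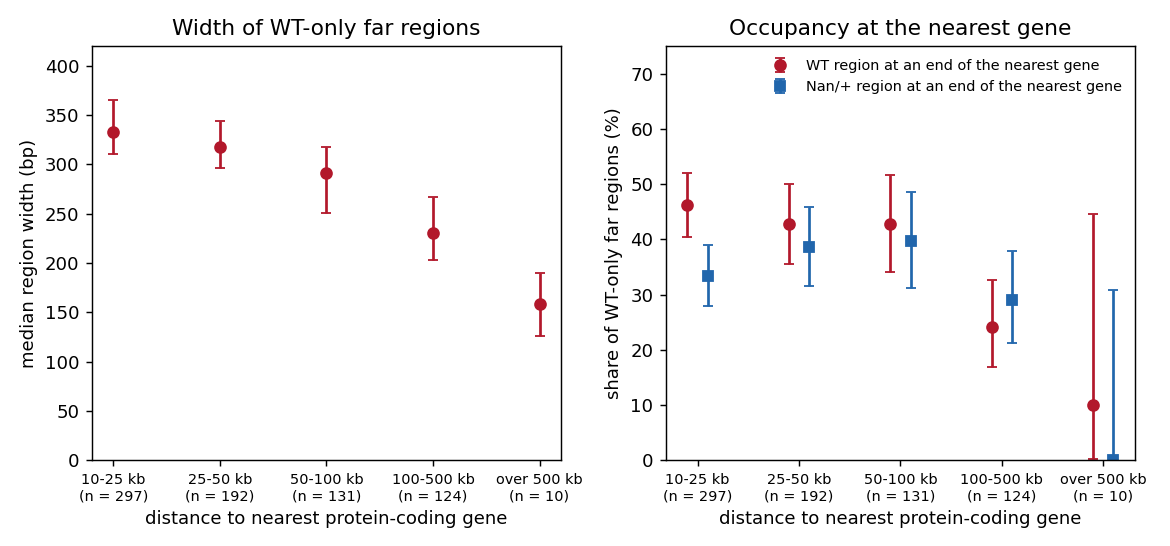
Left, median width in bp of WT-only far regions by distance to the nearest protein-coding gene, with 95% order-statistic intervals. Right, share of these regions whose nearest gene has a WT (red) or Nan/+ (blue) EKLF region within 1 kb of an end, with exact 95% binomial intervals. Width falls from 333 bp in the nearest range to 158 bp over 500 kb, and the WT share is 46.1% in the nearest range and 24.2% at 100 to 500 kb, while the Nan/+ share is 33.3% and 29.0%.

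Many of the regions had others of the class close by. When regions of the class with centres within 12500 bp of each other were joined, 251 of 754 (33.3%, 29.9 to 36.8) had at least 1 neighbour, with 503 single regions, 61 pairs, 24 triples and 11 larger groups. Nan-only far regions had a neighbour of their own class in 24.7% (22.9 to 26.6), although they are more numerous, and those above the minimum width in 15.3%. After Dleu2, the largest group was of 7 regions at chr12:32096650-32124217 between Prkar2b, a regulatory subunit of protein kinase A, and Pik3cg, a phosphoinositide 3-kinase subunit. All 7 lay over the lncRNA gene 5430401H09Rik, with 1 Nan/+ region in their span. A group of 6 at chr10:93121667-93145614 between Cfap54 and the kinase gene Cdk17 had no Nan/+ or shared region in its span of 23.9 kb. Groups of 5 lay at chr9:64045091-64071005 between Smad6 and Lctl and at chr1:82803797-82825467 beside Agfg1, each with 2 Nan/+ regions in its span. There were 6 groups of 4 regions, of which the one at chr5:118472839-118489558 beside Med13l covered the most bases and held 2 Nan/+ and 2 shared regions in its span.

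By nearest gene rather than by joining distance, Med13l, which encodes a Mediator subunit, had the most regions, with 14 from 16.2 to 145 kb away. Cd24a, the gene of a surface protein of immature blood cells, had 9 from 12.4 to 122 kb, 126 to 584 bp wide. At its ends Med13l had a Nan/+ region and no WT region, and Cd24a a WT region and no Nan/+ region. The 2 loci differed in their Nan/+ regions. The stretch of 297 kb between Spring1 and Med13l held 16 WT-only far, 14 Nan-only far and 3 shared far regions, while the stretch of 289.9 kb between Cd24a and Qrsl1 held 11, 2 and 0. In all, 478 stretches between neighbouring genes held members of the class, and 250 of them (52.3%, 47.7 to 56.9) also held a Nan-only far region. Those stretches contained 482 of the 754 regions (63.9%). Of the 18 stretches with 5 or more WT-only far regions, 16 had a Nan-only far region, and the exceptions were Dock4 to Immp2l with 7 WT-only regions and Cfap54 to Cdk17 with 6. The share over all stretches between genes, or over stretches of like length, was not computed. These counts therefore cannot show whether the 2 classes lie together more often than elsewhere.

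The gap to Nan/+ regions is described here without a test, because the rule removed every region that a Nan/+ region overlapped. The median gap to the nearest Nan/+ region was 17.5 kb (15.2 to 20.0), 60 regions (7.96%) had one within 1 kb, and 265 (35.1%) within 10 kb. For WT-only regions in or near genes the median gap was 10.9 kb (10.2 to 11.4). When Nan/+ regions at the minimum width were left out, the median gap of the far regions was 38.9 kb (32.6 to 44.1). At the edge of the rule, small gaps were 2 bp near Rftn1 and 11 bp near Clint1, and the far WT regions left out by the fewest shared bases overlapped a Nan/+ region by 13, 16 and 25 bp. At the other edge, the regions closest to the distance limit were 10039.5 bp from Slc4a1, 10048.5 bp from Fcamr and 10056.5 bp from Agfg1, and those just short of it were 9999.5 bp from Tbx22, 9932 bp from Rab30 and 9930.5 bp from Irf2bpl.

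The 754 regions had 525 different nearest protein-coding genes, 407 of them with 1 region and 21 with 4 or more. A WT EKLF region lay within 1 kb of an end of 185 of the 525 genes (35.2%, 31.1 to 39.5) and a Nan/+ region at 155 (29.5%, 25.7 to 33.6). Over all 21523 protein-coding genes used the shares were 21.9% and 16.9%, and over the 12593 genes beside a stretch of over 20 kb they were 16.8% and 13.6%. The genes nearest to all Nan-only far regions had a WT region at an end in 27.0% (24.7 to 29.5) and a Nan/+ region in 24.4% (22.1 to 26.7). For Nan-only far regions above the minimum width the shares were 34.1% (29.8 to 38.7) and 30.2% (26.1 to 34.6), and their intervals overlap those for WT-only far regions. The shares were higher for genes with more regions near them: a WT region at an end was found for 31.0% (26.5 to 35.7) of genes with 1 far region, 41.5% (29.4 to 54.4) with 2, and 60.4% (46.0 to 73.5) with 3 or more. Nan/+ regions at the ends went the same way, with 25.6, 36.9 and 50.9%.

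**Figure D4:**
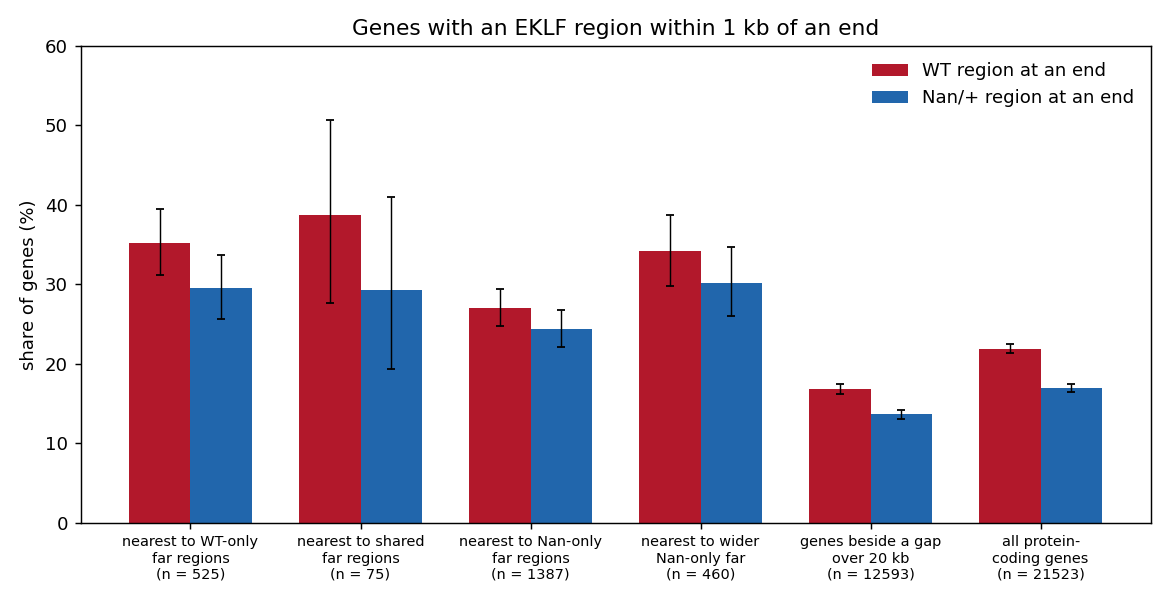
Share of genes with a WT (red) or Nan/+ (blue) EKLF region within 1 kb of either end, for the genes nearest to each class of far region, for genes beside a stretch of over 20 kb and for all protein-coding genes. Error bars are exact 95% binomial intervals. The genes nearest to WT-only far regions reach 35.2% and 29.5%, those nearest to all Nan-only far regions 27.0% and 24.4%, those nearest to wider ones 34.1% and 30.2%, and all genes 21.9% and 16.9%.

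Of 217 listed genes of erythroid regulation, red cell make-up, cell cycle and other liver cell types, 17 (7.83%) were nearest to a WT-only far region, compared with 2.44% of all protein-coding genes. For Nan-only far regions the shares were 16.6% and 6.44%. Between genes, only a stretch of over 20 kb can hold such a region, and 12593 of the 21523 genes lie beside one. The listed genes were not compared with those genes alone, so the shares over all genes are a low background. The 17 genes had 28 regions. Transcription factors of red cells accounted for 6 of 35 genes and membrane and globin genes for 7 of 36. In the same 2 lists, 14 and 5 genes were nearest to a Nan-only far region, a more numerous class. One of 30 heme and iron genes (Tfrc) and 1 of 19 genes of erythropoietin and Kit signalling (Pim1) were nearest to a region. None of 29 cell-cycle, 15 macrophage or 16 megakaryocyte genes was, while 2, 1 and 2 of them were nearest to a Nan-only far region. The hepatoblast list had 1 of 17 (Prox1, at 287 kb) and the list of endothelial, lymphoid and stem cell genes 1 of 22 (Cdh5, at 190.1 kb).

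Among the factors, Runx1, a master regulator of blood stem cells, had 4 regions at 97.0, 262, 279 and 358 kb, 227 to 458 bp wide, on its start side. The same stretch, up to Setd4, held 19 Nan-only regions and 1 shared region. Myc, a driver of growth in immature cells, had 3 regions at 77.2, 103 and 132 kb, all inside the lncRNA gene Pvt1, and they were 199, 243 and 502 bp wide. A WT region and no Nan/+ region lay at the ends of Myc, and 13 Nan-only far regions had Myc as nearest gene. Lmo2, the bridging protein of the GATA1 and TAL1 complex, had 3 regions at 13.0005, 25.2 and 49.8 kb, and the nearest of them was 330 bp from a Nan/+ region. Cbfa2t3, a corepressor in the same complex, had 2 regions at 36.5 and 37.1 kb. Gfi1b, a repressor needed for red cells and platelets, had 1 region of 512 bp, chr2:28597961-28598472, at 11.2 kb. Tcf12, an E protein, had 1 of 457 bp at 21.5 kb. At their ends, Gfi1b had a Nan/+ region and no WT region, and Tcf12 a WT region and no Nan/+ region. Lmo2 had both, and Runx1 and Cbfa2t3 had neither.

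The regions at red cell membrane and globin genes lay 10.0 to 36.1 kb from them. Slc4a1, the gene of the anion exchanger band 3, had 2 regions of 653 and 361 bp, chr11:102374995-102375647 and chr11:102375795-102376155, at 10.0 and 10.7 kb, with a Nan/+ region 790 bp from the first and both a WT and a Nan/+ region at the gene's ends. The first covered the Gm34253 start window printed above. Cd47, a membrane marker that protects red cells from engulfment, had regions of 817 bp at 11.1 kb and 200 bp at 31.6 kb, and no region of either genotype at its ends. Single regions lay at Gypc (31.1 kb), Kel (23.9 kb), Aqp1 (10.6 kb) and Slc2a1 (36.1 kb), genes of a glycophorin, a blood group antigen, a water channel and a glucose transporter. Both a WT and a Nan/+ region lay at the ends of Gypc, Kel and Slc2a1, and a Nan/+ region alone at those of Aqp1. Gypc was also the nearest gene of 8 Nan-only far regions and Slc2a1 of 2, and Kel and Aqp1 of none. Between the embryonic globin gene Hbb-y and the olfactory receptor gene Olfr66, on the side where the control region of the beta-globin genes lies, there were 2 regions, chr7:103865731-103866042 of 312 bp at 12.7 kb from Hbb-y and chr7:103870697-103871021 of 325 bp at 10.4 kb from Olfr66. The nearest Nan/+ regions to them were 11.2 and 6.20 kb away. Tfrc, the transferrin receptor gene, had 1 region of 210 bp at 17.7 kb. Pim1, a kinase gene induced by cytokines, had 2 of 557 and 762 bp at 53.6 and 47.1 kb, with Nan/+ regions 915 and 1019 bp away.

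Of other loci known for distal enhancers, Kit, Gata2 and Bcl2l1 were neither the nearest gene nor the gene on either side of a WT-only far region. The same held for the adult globin gene Hbb-bs by this measure, although the 2 regions beyond Hbb-y lie on the side of the control region that also serves Hbb-bs. Between Myb, a transcription factor gene of blood progenitors, and Hbs1l there was 1 region, chr10:21228620-21228867, at 67.8 kb from Myb and 67.2 kb from Hbs1l, nearly midway. In addition, 1 shared far and 1 Nan-only far region had Myb as nearest gene.

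Across chromosomes, the regions numbered 0.584 per Mb of the space over 10 kb from protein-coding genes. The highest densities were 0.786 on chromosome 5 and 0.780 on chromosome 10, and the lowest were 0.234 on chromosome 8 and 0.278 on chromosome X. Chromosome 8 held 15 regions (1.99%, 1.12 to 3.26) but 4.96% of the space, 6.06% of WT-only regions in or near genes and 4.85% (3.97 to 5.87) of Nan-only far regions. On chromosome X, WT-only far and Nan-only far regions were both sparse, with 3.98% and 3.32% of regions in 8.35% of the space.

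**Figure D5:**
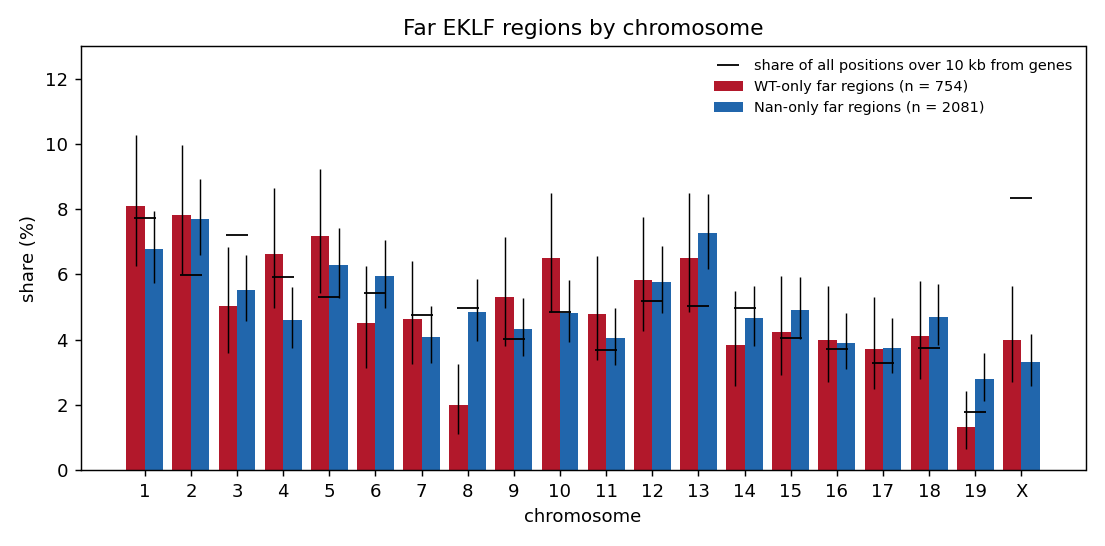
Share of WT-only far (red) and Nan-only far (blue) EKLF regions on each chromosome, with exact 95% binomial intervals, and the share of the space over 10 kb from protein-coding genes (black ticks). On chromosome 8 the red bar, 1.99%, lies below both the blue bar, 4.85%, and the tick, 4.96%.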

How the data were processed

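EKLF ChIP was read in 3 libraries for each genotype. Per the file headers, the authors made each list with HOMER's script for differential peaks in replicates on mm10, with a peak size of 125 and a minimum distance of 250 for WT and 175 and 300 for Nan/+, a q of 0.01, a DESeq2 step at an FDR of 0.01 and a log2 fold of 2, over all 3 libraries, in which 2 distinct inputs filled the 3 input places. Per the submitters' processing notes, bcl2fastq 2.17, Bowtie2 2.1, SAMtools 1.1 and deepTools 3.5 were used. The deposited score column is 1 in every row and was not used as a measure. Overlaps, gaps and distances were computed from the deposited coordinates with pandas 2.3.3 and numpy 2.4.6, and intervals with scipy 1.17.1, after the functions were checked on simulated data. Of 21900 protein-coding genes in the RefSeq table, 377 outside chromosomes 1 to 19 and X were left out, and so were 7 WT regions there. Genes were named by a rule: the 12 widest regions, the 6 largest groups, the regions at the limits of the rule, up to 4 genes a list, microRNAs, and loci with known distal enhancers. Other genes, and the remaining list genes, were chosen after their values were seen. The regions and the gene lists were chosen with earlier results of these data known. The planned motif search in the regions was not run because no genome was used here.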

Additional observations from a re-analysis of the deposited data

How the results depend on the processing

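With the distance from genes set to 25 kb or 50 kb the class held 457 or 265 regions, in place of 754, with the widest 50% of each list 236, and with noncoding genes counted as genes 337. At 25 kb the median width was 284 bp. In the widest 50% of the WT list the median distance to a gene was 27.4 kb, and without Nan/+ regions at the minimum width the median gap to Nan/+ was 38.9 kb. Regions with a neighbour were 19.9% when joined within 5 kb and 40.5% within 25 kb. The share of nearest genes with a WT region at an end was 43.6% within 5 kb of an end and 30.2% for the genes on either side. For a Nan/+ region it was 23.4% within 500 bp, 45.0% within 5 kb, 25.3% for the genes on either side and 23.2% without Nan/+ regions at the minimum width, so the order of WT and Nan/+ shares turned within 5 kb. Noncoding genes were at 30.8% of regions when over the centre and at 46.2% within 5 kb. With genes on either side, 26 listed genes had a region. The other 11 values moved less than their intervals or by under 1.5 times, among them the share within 1 kb of a start, an alternative chosen after seeing the data, which gave 36.9% for WT and 29.4% for Nan/+.

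No paired analysis was possible because the libraries of a genotype were merged into 1 list, and for the same reason leaving out a library was not run. A stricter peak score and other motif windows were not run, since the score is constant and no genome was used. Reads for each region were not analysed here, so what depth limits was not tested.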
